A study of Mus musculus with 24 samples.

Results

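The genes described here encode the nuclear parts of oxidative phosphorylation, the inner-membrane machinery of mitochondria that turns the oxidation of NADH and succinate into ATP. They were taken by symbol from the RefSeq gene table of mouse build GRCm38.p6 (the build known as mm10). All protein-coding genes whose symbol starts with Ndufa, Ndufb, Ndufc, Ndufs, Ndufv, Sdha, Sdhb, Sdhc, Sdhd, Uqcr, Cox4, Cox5, Cox6, Cox7, Cox8 or Atp5 were used. This gave 100 of 21631 genes on chromosomes 1 to 19 and X: 39 of complex I, 4 of complex II, 8 of complex III, 20 of complex IV, 17 of complex V and 12 assembly factors that share the prefixes. Ndufa4 and Ndufa4l2 were counted with complex IV, since the Ndufa4 protein is a subunit of that complex.

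The data are 14 lists of enriched regions from chromatin immunoprecipitation sequencing (ChIP-seq) of mouse leukaemia cell lines, each with a fusion of the nuclear pore gene NUP98. They form 7 pairs of cells given VTP50469, an inhibitor of the contact between Menin and MLL1, and cells given the solvent DMSO. MLL1 was precipitated from NUP98-HOXA9 cells (2 µM VTP50469 or DMSO, 72 h), NUP98-HOXD13 cells (2 µM or DMSO, 96 h), NUP98-JARID1A cells (2 µM or DMSO, 96 h) and NUP98-NSD1 cells (200 nM or DMSO, 96 h). Menin was precipitated from NUP98-HOXA9 and NUP98-HOXD13 cells, and trimethylated lysine 4 of histone H3 (H3K4me3) from NUP98-HOXA9 cells, each after 96 h with 2 µM VTP50469 or DMSO. All lines were grown with the cytokines IL-3, IL-6 and SCF, and the labels do not say how many clones a line comes from. For NUP98-NSD1 the sample labels give 200 nM, although the general treatment text of the series names 2 µM. Each condition has 1 library, so no difference below has a replicate check, and none was tested.

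Complex I passes electrons from NADH to ubiquinone, complex II does so from succinate, complex III hands them to cytochrome c, complex IV gives them to oxygen, and complex V uses the proton gradient to make ATP. MLL1 is a methyltransferase for lysine 4 of histone H3, Menin is its chromatin adaptor, and H3K4me3 marks the starts of active genes. Genes of the respiratory chain are used by nearly all cells, while several subunits of complex IV also exist as isoforms that are restricted to heart, muscle, testis or lung.

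The lists held 21739 regions after VTP50469 and 22534 in DMSO for MLL1 in NUP98-HOXA9, and 14744 after VTP50469 and 20154 in DMSO in NUP98-HOXD13. In NUP98-JARID1A they held 24950 after VTP50469 and 15765 in DMSO, and in NUP98-NSD1 1036 after VTP50469 and 7113 in DMSO. Menin had 403 regions after VTP50469 and 9050 in DMSO in NUP98-HOXA9, and 16706 after VTP50469 and 18826 in DMSO in NUP98-HOXD13. H3K4me3 had 9567 after VTP50469 and 9443 in DMSO. The number of reads behind a list is unknown, so the effect of depth and that of the treatment on a list's length cannot be told apart. Of 19 genes known as menin and MLL targets in leukaemia, MLL1 in DMSO reached an end of 14 in the HOXA9 fusion line (45% of all genes), 17 in that of HOXD13 (45.6%), 14 in that of JARID1A (41.2%) and 11 in that of NSD1 (22.1%), which does not check the fusion a line is labelled with. A gene was said to have a region when a region of the list shared at least 1 base with a window of 1 kb either side of one of its ends. Its covered length is the number of bases inside regions over its span plus 2 kb on both sides. A covered length is an extent in bases and not a signal strength.

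The promoters of 8 members are shown because the results below turn on these genes. They are windows of 300 bases, 250 before the transcription start and 50 from it on, from RefSeq (GRCm38.p6), written 5′ to 3′ on the strand of the gene. Capitals mark matches to the motif letters searched on both strands: GCGCATGCG and the shorter TGCGCA for NRF1, CCGGAAG for ETS factors such as GABPA, AAGATGGCG for YY1, GGGCGG for SP1, and TGACGTCA for CRE-binding factors. The NRF1 motifs overlap, and a match describes letters only. Ndufs7 (chr10:80249199-80249498, plus strand) encodes the core subunit of complex I that carries the last iron-sulphur cluster before ubiquinone, and Ndufc2 (chr7:97399753-97400052, plus strand) encodes an accessory subunit. Uqcrfs1 (chr13:30545267-30545566, minus strand) encodes the Rieske iron-sulphur protein of complex III, and Uqcrc1 (chr9:108936398-108936697, plus strand) its core protein. Cox5b (chr1:36691237-36691536, plus strand) and Cox8a (chr19:7217567-7217866, minus strand) encode subunits of complex IV found in most tissues, and Cox8b (chr7:140900397-140900696, minus strand) is the heart and muscle relative of Cox8a. Sdhaf2 (chr19:10525160-10525459, minus strand) encodes a factor that attaches FAD to the succinate-oxidising subunit of complex II.
Ndufs7: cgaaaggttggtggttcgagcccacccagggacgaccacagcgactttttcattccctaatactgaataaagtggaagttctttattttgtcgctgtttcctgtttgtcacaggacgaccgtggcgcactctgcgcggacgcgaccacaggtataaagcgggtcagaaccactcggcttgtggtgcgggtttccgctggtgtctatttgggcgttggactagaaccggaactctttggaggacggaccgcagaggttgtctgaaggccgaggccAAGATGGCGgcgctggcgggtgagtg
Ndufc2: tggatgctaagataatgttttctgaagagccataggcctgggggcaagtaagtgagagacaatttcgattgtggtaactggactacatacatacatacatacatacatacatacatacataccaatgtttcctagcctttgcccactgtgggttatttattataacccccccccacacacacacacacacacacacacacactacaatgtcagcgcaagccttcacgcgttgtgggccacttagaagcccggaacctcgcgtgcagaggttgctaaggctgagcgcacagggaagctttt
Uqcrfs1: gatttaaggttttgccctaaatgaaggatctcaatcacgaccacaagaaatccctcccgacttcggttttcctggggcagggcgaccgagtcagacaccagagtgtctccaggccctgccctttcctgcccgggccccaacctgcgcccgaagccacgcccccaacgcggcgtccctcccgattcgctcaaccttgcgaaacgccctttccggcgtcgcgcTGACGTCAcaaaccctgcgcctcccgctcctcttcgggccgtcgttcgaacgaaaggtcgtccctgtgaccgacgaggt
Uqcrc1: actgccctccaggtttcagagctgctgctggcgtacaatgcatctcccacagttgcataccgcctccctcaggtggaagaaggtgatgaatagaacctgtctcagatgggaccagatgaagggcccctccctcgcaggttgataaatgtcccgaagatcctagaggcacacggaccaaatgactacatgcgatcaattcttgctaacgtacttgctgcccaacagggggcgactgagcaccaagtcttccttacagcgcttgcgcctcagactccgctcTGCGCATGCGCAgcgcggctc
Cox5b: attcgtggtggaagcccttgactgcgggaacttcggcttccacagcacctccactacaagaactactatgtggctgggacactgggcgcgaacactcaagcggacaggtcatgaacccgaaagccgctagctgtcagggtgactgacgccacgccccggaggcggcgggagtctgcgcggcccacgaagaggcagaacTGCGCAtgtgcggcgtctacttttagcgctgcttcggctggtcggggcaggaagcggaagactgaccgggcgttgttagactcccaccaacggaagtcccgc
Cox8a: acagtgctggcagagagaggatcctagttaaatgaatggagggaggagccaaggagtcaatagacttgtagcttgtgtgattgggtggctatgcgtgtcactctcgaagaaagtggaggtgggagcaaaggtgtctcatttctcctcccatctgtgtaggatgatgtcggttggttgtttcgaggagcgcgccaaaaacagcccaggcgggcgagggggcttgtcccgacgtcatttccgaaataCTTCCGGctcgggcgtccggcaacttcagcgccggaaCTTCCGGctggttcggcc
Cox8b: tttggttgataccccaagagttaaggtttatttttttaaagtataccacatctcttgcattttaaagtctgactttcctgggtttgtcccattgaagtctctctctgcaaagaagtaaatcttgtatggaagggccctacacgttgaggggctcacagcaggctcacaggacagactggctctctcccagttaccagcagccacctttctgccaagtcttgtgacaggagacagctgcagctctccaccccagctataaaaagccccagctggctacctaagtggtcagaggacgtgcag
Sdhaf2: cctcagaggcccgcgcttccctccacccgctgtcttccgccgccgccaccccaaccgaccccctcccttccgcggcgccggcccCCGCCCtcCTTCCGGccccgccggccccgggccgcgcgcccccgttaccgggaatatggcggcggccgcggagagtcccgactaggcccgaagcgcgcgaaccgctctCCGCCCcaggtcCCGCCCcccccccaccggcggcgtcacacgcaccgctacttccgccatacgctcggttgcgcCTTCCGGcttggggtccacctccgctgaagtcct
Uqcrc1 holds a full NRF1 palindrome close to its start, and Ndufs7 holds the YY1 letters there. Cox8a holds the ETS letters at 2 places, while its heart and muscle relative Cox8b holds none of the motifs and has 2 CpG pairs against 19 in Cox8a. Sdhaf2 is the richest of the 8, with 44 CpG pairs and matches to the ETS and SP1 letters. Ndufc2 has 8 CpG pairs and no match.

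RefSeq promoters were at hand for 82 members and for 17274 genes in all. The median number of CpG pairs per window was 20 in the members and 14 over all genes, and the median GC content 58.5% and 56.3%. The 9 NRF1 letters stood in 12.2% of the members and in 2.43% of all genes, and the 6 NRF1 letters in 25.6% and 10.1%. The ETS letters stood in 25.6% of the members and 12.1% of all genes, and the YY1 letters in 8.54% and 1.92%. The SP1 letters were as frequent in both, at 47.6% and 46.9%, and the CRE letters stood in 4.88% and 2.36%. All genes include many with few CpG pairs, so the same shares were taken over the 7944 genes with MLL1 at an end in NUP98-HOXA9 cells in DMSO, whose median was 22 CpG pairs. There the 9 NRF1 letters stood in 4.46%, the ETS letters in 21.4% and the YY1 letters in 3.75%, against 14.1%, 28.2% and 9.86% in the 71 members with MLL1. The SP1 letters were the exception, at 67.1% of these genes and 45.1% of these members. By complex, the YY1 letters stood in 5 of 34 promoters of complex I and in 1 of 15 of complex V, and the ETS letters in 4 and 5.

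**Figure D1:**
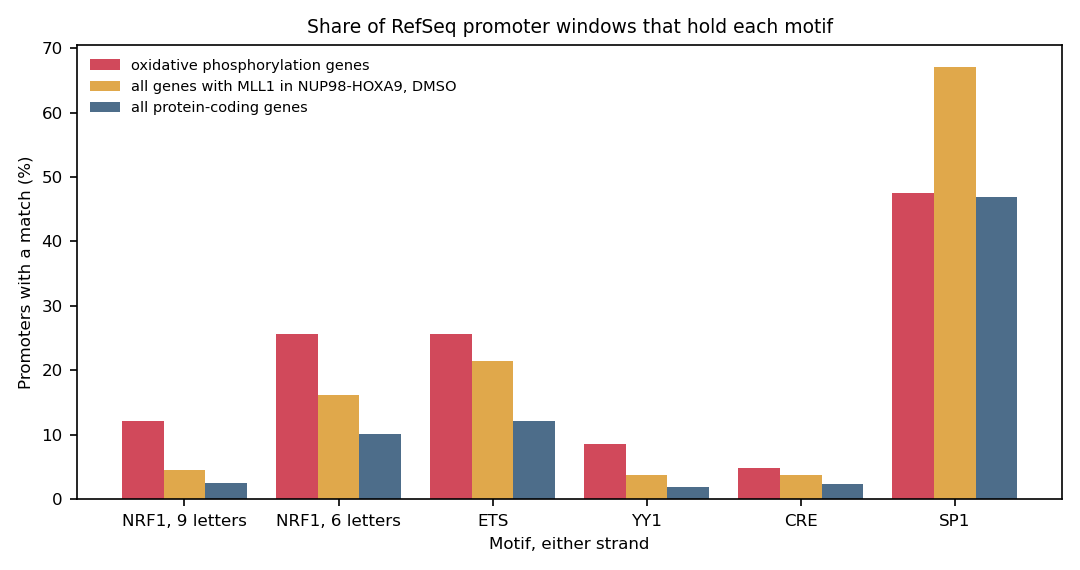
Share of RefSeq promoter windows (300 bases, vertical axis in percent) that hold each motif on either strand, for the oxidative phosphorylation genes, for all genes with MLL1 at an end in NUP98-HOXA9 cells in DMSO, and for all protein-coding genes. The bars of the oxidative phosphorylation genes are the highest for the NRF1, ETS, YY1 and CRE letters, and for the SP1 letters they stand at 47.6%, below the 67.1% of the genes with MLL1.

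Members lay close to other genes. An end of another protein-coding gene lay within 1 kb of an end of 55 of the 100 members, against 25.1% of all genes. Examples are Atp5j beside Gabpa, the gene of an ETS factor, Ndufb10 beside the ribosomal protein gene Rps2, and Sdhaf2 beside Cpsf7. A region at such an end may be counted for both genes, and how much of it belongs to the member was not tested.

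The first comparison is between the complexes in DMSO, before any inhibitor. MLL1 was at an end of 84 members in NUP98-HOXA9 (45% of all genes) and of 88 in NUP98-HOXD13 (45.6%). It was at 79 members in NUP98-JARID1A (41.2% of all genes) and at 38 in NUP98-NSD1 (22.1%). Menin was at 54 members in NUP98-HOXA9 (27.8% of all genes) and at 85 in NUP98-HOXD13 (44.9%), and H3K4me3 at 82 in NUP98-HOXA9 (37.3%). MLL1 reached 36 members in all 4 lines, against 21% of all genes, and 11 members in none, against 51.8%. Another 41 had it in every line but NUP98-NSD1, whose list was the shortest, and the share of all genes with that pattern was not taken.

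Complexes II and III had the highest share of genes with MLL1 in all 4 lines. In DMSO such genes were 3 of 4 genes of complex II, 6 of 8 of complex III, 6 of 12 assembly factors, 12 of 39 of complex I, 6 of 17 of complex V and 3 of 20 of complex IV. Sdha, which encodes the flavoprotein that oxidises succinate, had 1471 covered bases for MLL1 with the HOXA9 fusion, 701 with HOXD13, 787 with JARID1A and 461 with NSD1. Sdhc, a membrane anchor, was the gene of complex II without a region in NUP98-NSD1. Complex V was complete for MLL1 in NUP98-HOXA9 and NUP98-HOXD13, with 17 of 17 genes, and had 12 in NUP98-JARID1A and 6 in NUP98-NSD1.

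The 3 marks largely shared their members. In NUP98-HOXD13 cells in DMSO, 95.5% of the members with MLL1 also had Menin (94.5% of all genes), and 98.8% of those with Menin also had MLL1 (95.9%). After VTP50469 the shares in these cells were 97.4% (95.8% of all genes) and 93.8% (93.5%). In NUP98-HOXA9 cells in DMSO, Menin stood at fewer of the members with MLL1, 63.1% (61.5% of all genes), while 98.1% of those with Menin had MLL1 (99.5%). There H3K4me3 stood at 94.0% of the members with MLL1, against 79.8% of all genes with MLL1, and 96.3% of the members with H3K4me3 had MLL1 (96.4%). In NUP98-HOXA9 the MLL1 list is from 72 h and the other lists from 96 h. In DMSO its MLL1 list held 22534 regions and its Menin list 9050. The titles of the MLL1 and Menin libraries of NUP98-HOXD13 carry different codes.

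Complex IV had the lowest share, and most of its genes counted as restricted had no region at an end. No list had a region at an end of 7 of its 8 restricted genes, namely Cox4i2, Cox6a2, Cox6b2, Cox7b2, Cox8b, Cox8c and Ndufa4l2. Of these, Ndufa4l2 had covered bases outside the gene-end windows in 3 lists. The eighth, Cox7a1, the heart and muscle form, had MLL1 in 3 lines, with 240 covered bases in NUP98-HOXA9, 308 in NUP98-HOXD13 and 281 in NUP98-JARID1A in DMSO. An end of Capns1 lies within 1 kb of an end of Cox7a1, which had no H3K4me3 region. Of the 12 ubiquitous genes, 9 had MLL1 at an end in NUP98-HOXA9 and 10 in NUP98-HOXD13.

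In all, 11 members had no region at an end in any of the 14 lists, against 48.4% of all genes. They are the 7 restricted genes above, Ndufb4b and Ndufb4c, which are copies related to Ndufb4, and Cox5a and Cox7a2. The last 2 are ubiquitous, and their RefSeq start lies inside the gene span of the table, 3904 bp from its end in Cox5a and 11569 bp in Cox7a2. At that start a region stood in 11 of the 14 lists for Cox5a and in 12 for Cox7a2. Atp5d and Atp5g3 were affected in the same way in 2 and 4 lists. Neither a region nor a covered base was found in any list for 8 of the 11, Cox5a, Cox7a2 and Ndufa4l2 being the other ones. Where RefSeq gives a promoter, the restricted genes of complex IV had a median of 8.5 CpG pairs over 4 promoters, against 19 over 10 promoters of the ubiquitous ones. The 4 include Cox7a1, which had MLL1 and has 7 pairs. The others, never called at an end, are Cox6b2 with 10, Cox7b2 with 10 and Cox8b with 2.

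**Figure D2:**
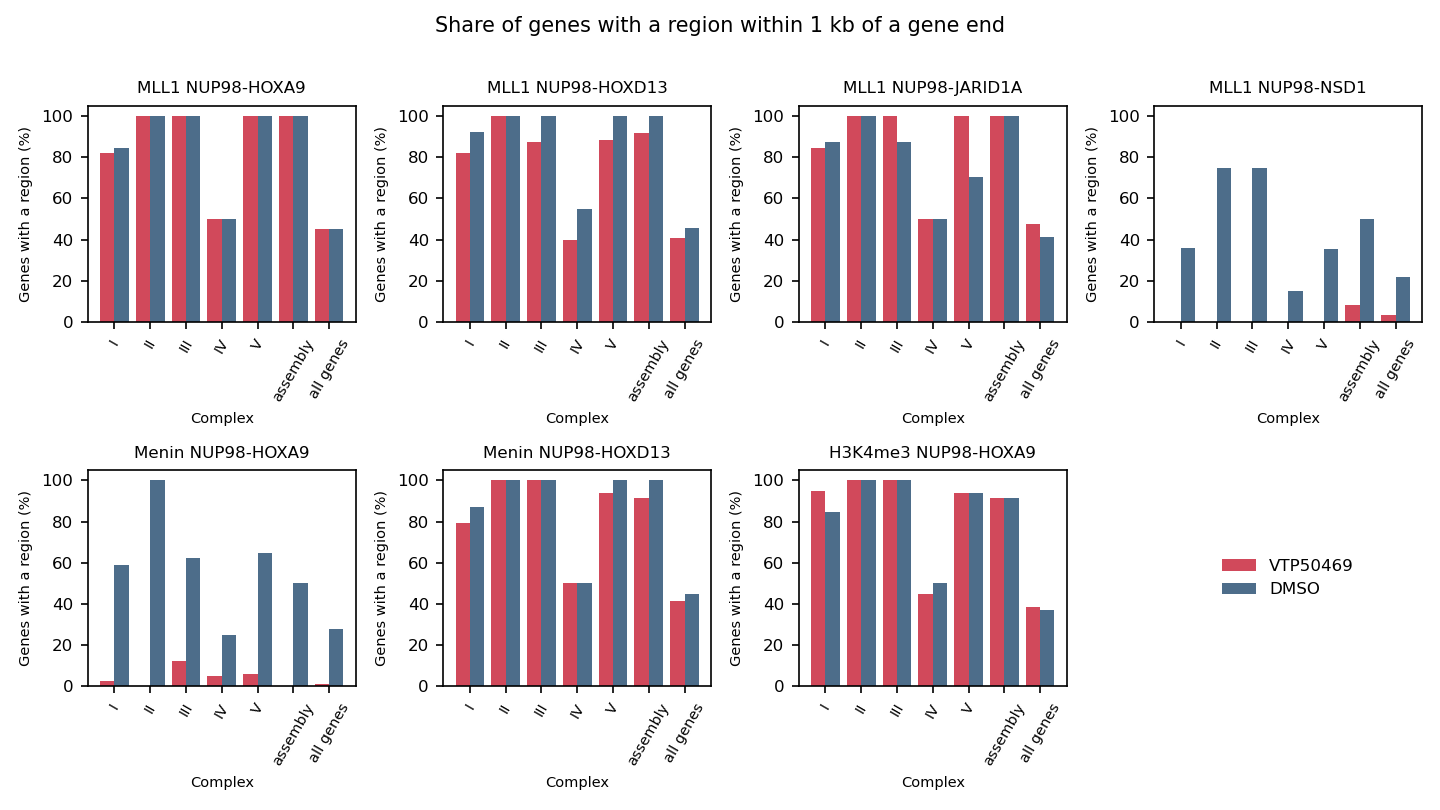
Percent of genes with a region within 1 kb of a gene end (vertical axis) in the 7 pairs of VTP50469 (red, left bar) and DMSO (blue, right bar), for complexes I to V, the assembly factors and all protein-coding genes. Complex IV has the lowest share of the 5 complexes in each list but those of Menin in NUP98-HOXA9 and MLL1 in NUP98-NSD1 after VTP50469, where 4 and 1 members had a region.

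Regions at the members were narrower than at genes at large. The width taken for a gene is that of the region with the highest fold at its ends. The median width of the MLL1 region at a gene end was 643 bp after VTP50469 and 677 bp in DMSO for the members in NUP98-HOXA9. For all genes it was 673 bp after VTP50469 and 767 bp in DMSO. In NUP98-HOXD13 it was 506 bp after VTP50469 and 638 bp in DMSO for the members, and 553 bp after VTP50469 and 752 bp in DMSO for all genes. The members were narrower in NUP98-JARID1A too, with 674.5 bp after VTP50469 and 515 bp in DMSO, where all genes had 761 bp after VTP50469 and 652 bp in DMSO. Regions of 2 kb or more were rare: 1 of 84 members with MLL1 in NUP98-HOXA9 in DMSO had one, or 1.19%, against 3.90% of all genes. Counting each gene once, the widest of these MLL1 regions in DMSO was counted at Ndufv2, with 2364 bp in NUP98-JARID1A. Ndufv2 encodes an iron-sulphur core subunit of complex I. Part of that region lay outside the gene span plus 2 kb, where 2283 bases were covered. In NUP98-HOXA9 the Ndufv2 region in DMSO, chr17:66075765-66077909, lay beyond the gene end opposite its start. Ankrd12 has an end within 1 kb of an end of Ndufv2. Next came Ndufa13, with 2155 bp in NUP98-HOXD13, and Atp5md, with 1860 bp in NUP98-JARID1A.

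MLL1 and Menin regions sat on the start and H3K4me3 behind it. Positions are given in bp from the RefSeq start, negative upstream, as medians over members that have one. In NUP98-HOXA9 the MLL1 summit lay at -38 after VTP50469 and at -23 in DMSO. In NUP98-HOXD13 it lay at -43 after VTP50469 and at -39 in DMSO, and in NUP98-JARID1A at -41 after VTP50469 and at -20 in DMSO. Menin in NUP98-HOXD13 lay at -29.5 after VTP50469 and at -34 in DMSO. H3K4me3, in contrast, lay behind the start, at 255 after VTP50469 and at 266 in DMSO. All genes showed the same order, with MLL1 in NUP98-HOXA9 at -47 after VTP50469 and at -41 in DMSO, and H3K4me3 at 272 after VTP50469 and at 274 in DMSO. Cox5b shows this at a single gene in DMSO: its MLL1 region in NUP98-HOXA9 was chr1:36691184-36691795 and its H3K4me3 region chr1:36691593-36692389.

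**Figure D3:**
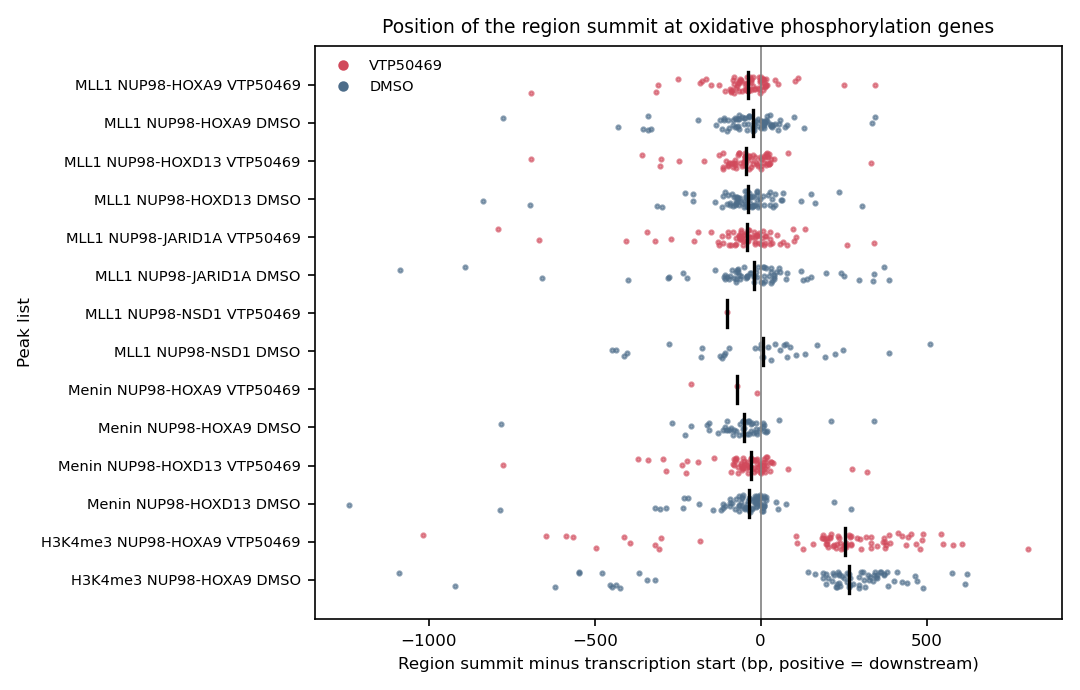
Distance from the transcription start to the summit of the strongest region at it (horizontal axis in bp, positive downstream), 1 point a gene, for each list, VTP50469 in red above DMSO in blue; black bars are medians. Most MLL1 and Menin points lie within 250 bp of the start, and the H3K4me3 medians stand 255 and 266 bp downstream.

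In NUP98-HOXA9 cells the inhibitor left nearly every member with MLL1. A region stood at 83 members after VTP50469 and at 84 in DMSO (45% of all genes in both lists). The 1 lost gene was Ndufs4, an accessory subunit of complex I, with 262 covered bases in DMSO, where 3.93% of all genes with MLL1 in DMSO lost it. None was gained (3.33% of genes without MLL1 in DMSO). The members' covered length was 64175 bases after VTP50469 and 73866 in DMSO, or 86.9%, against 76.6% over all genes, and 54 members were shorter and 32 longer (63% and 36.8% of all genes). By complex the length was 87.8% of DMSO in I, 74.3% in II, 91.6% in III, 84.9% in IV and 82.7% in V. The assembly factors had 94.3%. Complex II, with 4 genes, was thus the lowest of the complexes here.

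Among the central genes in these cells, some were shorter and others longer. In complex I, Ndufs1, an iron-sulphur subunit, had 833 covered bases after VTP50469 and 1058 in DMSO. Ndufv1, which binds FMN and oxidises NADH, had 585 after VTP50469 and 636 in DMSO.

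Complex II held both directions. Sdha had 659 covered bases after VTP50469 and 1471 in DMSO, or 44.8%, 1 of 3 members at or under 50% of the DMSO length (12.8% of all genes). Sdhb, the iron-sulphur subunit, had 789 after VTP50469 and 1097 in DMSO. Sdhd, a membrane anchor, was longer, with 792 after VTP50469 and 594 in DMSO. In complex III, Uqcrc1 had the largest growth of any member relative to its DMSO length, with 794 after VTP50469 and 412 in DMSO, or 193%. The Rieske gene Uqcrfs1 had 694 after VTP50469 and 781 in DMSO.

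In complexes IV and V most of the named genes were shorter. Cox4i1 had 804 covered bases after VTP50469 and 1163 in DMSO, and Cox6c had 299 after VTP50469 and 682 in DMSO. Atp5b, the catalytic beta subunit of complex V, had 895 after VTP50469 and 1293 in DMSO. Atp5o, which joins the stalk to the head, had 569 after VTP50469 and 742 in DMSO, while Atp5a1, the alpha subunit, had 340 after VTP50469 and 327 in DMSO and was about as long. The longest fall of any member was at Ndufb1, an accessory subunit of complex I, with 979 after VTP50469 and 1841 in DMSO.

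In NUP98-HOXD13 cells MLL1 stood at 77 members after VTP50469 (40.6% of all genes) and at 88 in DMSO (45.6%). The 11 lost genes are 12.5% of the members with MLL1, and 12.2% of all genes with MLL1 in DMSO lost it. They were Ndufs3, Ndufa1, Ndufa12 and Ndufc2 of complex I, Uqcrb of complex III, Cox6c, Cox7b and Ndufa4 of complex IV, Atp5a1 and Atp5j2 of complex V, and the assembly factor Ndufaf1. Their covered length in DMSO lay between 224 bases, at Ndufa1, and 836, at Ndufaf1. No gene of complex II was lost, and none of the members was gained (1.04% of all genes without MLL1 in DMSO). With both lists cut to the 14744 regions of highest −log10 q, 5 members were lost (6.33%, against 7.36% of all genes with MLL1 in DMSO) and 3 were gained.

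Covered length in these cells was 48076 bases after VTP50469 and 71438 in DMSO, or 67.3%, against 58.3% over all genes, and 79 members were shorter and 11 longer (89.7% and 10.2% of all genes). By complex it was 66.8% in complex I, 87.8% in complex II, 59.7% in complex III, 67.3% in complex IV, 62.4% in complex V and 77.1% in the assembly factors. The 5 genes of the membrane part of complex V had 43.4%, the lowest of the subgroups. Ndufb1 had 577 covered bases after VTP50469 and 2092 in DMSO. Ndufb10 had 747 after VTP50469 and 1899 in DMSO. Both Ndufb1 and Ndufb10, genes of complex I, were among the 21 members at or under 50% of the DMSO length (30.4% of all genes). Atp5b had 476 after VTP50469 and 813 in DMSO. Cox4i1 was among the 11 that were longer, with 990 after VTP50469 and 911 in DMSO.

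In NUP98-JARID1A cells the members gained MLL1 regions, and so did genes at large. A region stood at 84 members after VTP50469 (47.4% of all genes) and at 79 in DMSO (41.2%), with 6 gained and 1, Ndufc2, lost. Over all genes 11.3% of those without MLL1 in DMSO gained it, and 1.01% of those with it lost it. The 6 gained members are likewise to be read against the members without MLL1 in DMSO, since 79 of the 100 had it. Of the 6 gained genes, 5 belong to complex V: Atp5a1 and Atp5d of its catalytic head, Atp5g3 of its c ring, and Atp5j2 and Atp5k of its membrane part. The last is Uqcr11 of complex III, with 901 covered bases after VTP50469 and 0 in DMSO. Complex V thus had MLL1 at 17 of 17 genes after VTP50469 and at 12 in DMSO. Atp5d had 1744 covered bases after VTP50469 and 618 in DMSO, and Atp5g3 had 973 after VTP50469 and 360 in DMSO. Both already had a region at their RefSeq start in DMSO, so the gain there concerns the gene end of the table. The treated list is the longer one, and with both lists cut to the 15765 regions of highest −log10 q the direction turned, with MLL1 at 72 members after VTP50469 and at 79 in DMSO, 10 lost (12.7%, against 10.4% of all genes) and 3 gained. Complex V then had MLL1 at 13 genes after VTP50469 and at 12 in DMSO, with 2 gained and 1 lost. In the full lists no base was covered in DMSO at the other 3 genes of complex V, where Atp5a1 had 462 after VTP50469, Atp5j2 401 and Atp5k 263.

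Covered length in NUP98-JARID1A was 75171 bases after VTP50469 and 62128 in DMSO, or 121%, against 130.6% over all genes, and 59 members were longer and 24 shorter (72.4% and 27.4% of all genes). At least 200% of the DMSO length was reached by 9 members (19.3% of all genes). Complex III reached 136%, complex V 130%, complex I 122%, the assembly factors 112%, complex IV 109% and complex II 100.2%. In lists of equal length the total was 105% of DMSO (108% over all genes), complex I turned to 98.3% and complex II to 89.1%, while complex III had 132%, complex V 111%, the assembly factors 106% and complex IV 103%. Ndufb10 had 2066 bases after VTP50469 and 670 in DMSO, but 41% of the DMSO length in lists of equal length. Ndufv3, an accessory subunit, had 1320 after VTP50469 and 259 in DMSO. Uqcrc1 had 967 after VTP50469 and 271 in DMSO, so it was longer here as in NUP98-HOXA9. Atp5b had 2237 after VTP50469 and 1600 in DMSO. Some members went the other way. Atp5md had 1156 after VTP50469 and 1860 in DMSO. Atp5l, the g subunit, had 909 after VTP50469 and 1603 in DMSO. Sdhd had 711 after VTP50469 and 1199 in DMSO.

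In NUP98-NSD1 cells, given the lower dose, MLL1 stood at 1 member after VTP50469 (3.6% of all genes) and at 38 in DMSO (22.1%). The 37 lost members are 97.4%, and 86.2% of all genes with MLL1 in DMSO lost it. None was gained (0.712% of all genes without it in DMSO). The treated list was also the shorter one, and with both cut to 1036 regions 3 members had MLL1 in DMSO, all of which were lost (65.8% of all genes), while Sdhaf2 had it after VTP50469 alone. In the full lists the member that kept MLL1 was Sdhaf2, whose region was chr19:10525261-10525644 after VTP50469 and chr19:10525033-10525667 in DMSO, and overlaps the promoter printed above. It covered 384 bases after VTP50469 and 635 in DMSO. Every gene of complexes I to V that had MLL1 in DMSO was lost, 14, 3, 6, 3 and 6 in number, and 5 of 6 assembly factors. The covered length was 384 bases after VTP50469 and 21588 in DMSO, or 1.78%, against 9.40% over all genes. The lost members with the highest fold in the DMSO list, a value of the authors' own, were Sdha, Ndufb1, Ndufv2, Uqcr10 and Ndufa4. Sdha had 0 covered bases after VTP50469 and 461 in DMSO. Ndufv2 had 0 after VTP50469 and 1632 in DMSO, and Ndufb1 had 0 after VTP50469 and 1239 in DMSO.

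**Figure D4:**
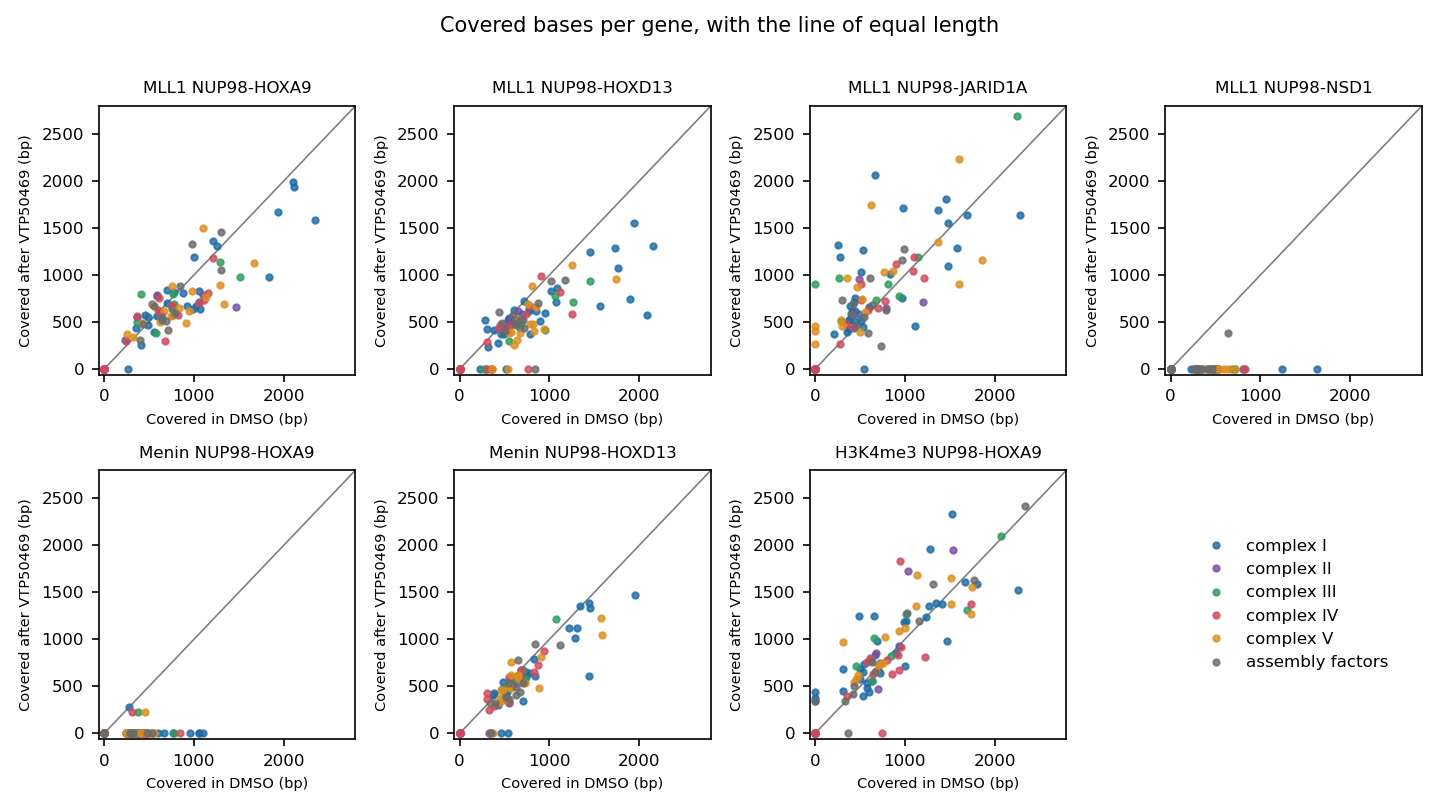
Covered bases of each of the 100 genes after VTP50469 (vertical axis, bp) against DMSO (horizontal axis, bp) in the 7 pairs, coloured by complex, with the line of equal length. Most points lie below the line for MLL1 in NUP98-HOXD13 (79 genes shorter) and above it in NUP98-JARID1A (59 longer), and nearly all lie on the horizontal axis for MLL1 in NUP98-NSD1 and Menin in NUP98-HOXA9.

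Set side by side, MLL1 was lost in none of the lines at 55 members (the 11 without MLL1 in DMSO included), in 1 line at 41, in 2 lines at Ndufa4, Uqcrb and Ndufs4, and in 3 lines at Ndufc2. The same counts over all genes were not taken, so they are no result about the members. NUP98-NSD1 alone lost 37 members, and there 86.2% of all genes with MLL1 in DMSO lost it. Ndufc2 had 0 covered bases after VTP50469 in each of the 3 lines that lost it. Its DMSO length was 292 bases with the HOXD13 fusion, 540 with JARID1A and 426 with NSD1. The Ndufc2 promoter has 8 CpG pairs, but Cox7a1, with 7, lost MLL1 in none of the lines. Ndufa1, with 29, lost it in NUP98-HOXD13, and a link between CpG pairs and loss was not tested. In NUP98-HOXA9 Ndufc2 had no MLL1 in either list, while its H3K4me3 covered 653 bases after VTP50469 and 537 in DMSO. In NUP98-HOXD13 and NUP98-JARID1A its MLL1 regions in DMSO were weak. Their deposited fold was at or above that of 8.65% and 9.62% of gene-end regions in these lists, in that order. Ndufs3, Ndufa1, Ndufa3 and Cox7b had MLL1 in DMSO in NUP98-HOXD13 alone, and the share of all genes with that pattern was not taken. Ndufa1 and Cox7b lie on the X chromosome, but so does Ndufb11, which had MLL1 in DMSO in 3 lines.

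In NUP98-HOXA9 cells Menin regions were at few members after VTP50469. Menin stood at 4 members after VTP50469 (0.971% of all genes) and at 54 in DMSO (27.8%), and 51 members, or 94.4%, lost it, against 96.6% of all genes. The treated list held 403 regions in all, and with both lists cut to that number the order turned, with Menin at 4 members after VTP50469 and at 0 in DMSO (60% of the 240 genes with it in DMSO lost it). The 51 lost members include each of the 23 genes of complex I and 4 of complex II that had Menin in DMSO, with 4 genes of complex III, 4 of complex IV, 10 of complex V and 6 assembly factors. The covered length was 963 bases after VTP50469 and 25425 in DMSO, or 3.79%, against 2.57% over all genes. Ndufs7 had the highest fold of the lost members in the DMSO list, with 0 covered bases after VTP50469 and 663 in DMSO, and Cox4i1 had 0 after VTP50469 and 458 in DMSO.

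The genes that kept Menin in NUP98-HOXA9 were Cox5b, Atp5g1 and Uqcrfs1. Cox5b had 228 covered bases after VTP50469 and 311 in DMSO. Atp5g1, a gene of the c subunit, had 225 after VTP50469 and 459 in DMSO. Uqcrfs1 had 224 after VTP50469 and 382 in DMSO. The kept Menin region of Uqcrfs1, chr13:30545239-30545462, overlaps the promoter printed above, as does that of Cox5b, chr1:36691361-36691588. None of the 3 has an end of another protein-coding gene within 1 kb of its own ends. MLL1 regions at Cox5b and Uqcrfs1 had a deposited fold at or above that of 90.4% and 96.1% of gene-end regions in the NUP98-HOXA9 DMSO list. The MLL1 region at Atp5pb, which lost Menin, was at or above 97.7% of them, so such a rank was not particular to the kept genes. Ndufb10 was counted as gained, with 286 bases after VTP50469 and 276 in DMSO, since its DMSO region lay outside the window (0.0256% of all genes without Menin in DMSO were gained). It lies beside Rps2.

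The loss of Menin in NUP98-HOXA9 went with little loss of MLL1. Of the 51 members that lost Menin, 50 had MLL1 in both lists (98.0%, against 99.4% of the 5809 genes that lost Menin). H3K4me3 was in both lists at 47 of them, or 92.2%, against 82.6%. The MLL1 pair was taken at 72 h and the other pairs at 96 h, so these values come from different times. The sample titles of the MLL1 pair also name the line differently and carry another code than those of the other pairs. MLL1 covered length at members with Menin in DMSO had a median of 88.9% of the DMSO length, and at members without Menin 90.3%. Over all genes the medians were 90.8% and 82.8%.

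In NUP98-HOXD13 cells Menin stayed at most members. It stood at 80 after VTP50469 (41.6% of all genes) and at 85 in DMSO (44.9%), and 5 members, or 5.88%, lost it, against 8.74% of all genes, while none was gained (1.11% of all genes without it in DMSO). The lost ones were Ndufa3, Ndufb8 and Ndufs4 of complex I, Atp5a1 of complex V and the assembly factor Ndufaf1. The covered length was 50860 bases after VTP50469 and 61311 in DMSO, or 83.0%, against 79.0% over all genes. Complex III had 96.6% and complex II 93.8%, while complexes I and V had 80.4% each. Ndufb10 had 615 bases after VTP50469 and 1440 in DMSO, and Uqcrq of complex III had 1215 after VTP50469 and 1074 in DMSO. Atp5a1, the alpha subunit, and Ndufaf1 also lost MLL1 in these cells.

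H3K4me3 in NUP98-HOXA9 cells stood at 85 members after VTP50469 (38.7% of all genes) and at 82 in DMSO (37.3%). Cox7b of complex IV and the assembly factor Sdhaf4 lost it (3.95% of all genes with it in DMSO). It was gained at 5 of the members without it in DMSO, Ndufa1, Ndufs3, Ndufs5 and Sdhaf3 among them (4.64% of all genes without it). The covered length was 87653 bases after VTP50469 and 80778 in DMSO, or 109%, against 108% over all genes, and 48 members were longer and 38 shorter (56.3% and 43.4% of all genes). Complex II had 127% and complex IV 92.2%. Sdha had 1728 bases after VTP50469 and 1033 in DMSO, although its MLL1 length in this line was shorter after VTP50469. Ndufa10 had 1249 after VTP50469 and 485 in DMSO. Atp5b had 1270 after VTP50469 and 1738 in DMSO.

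**Figure D5:**
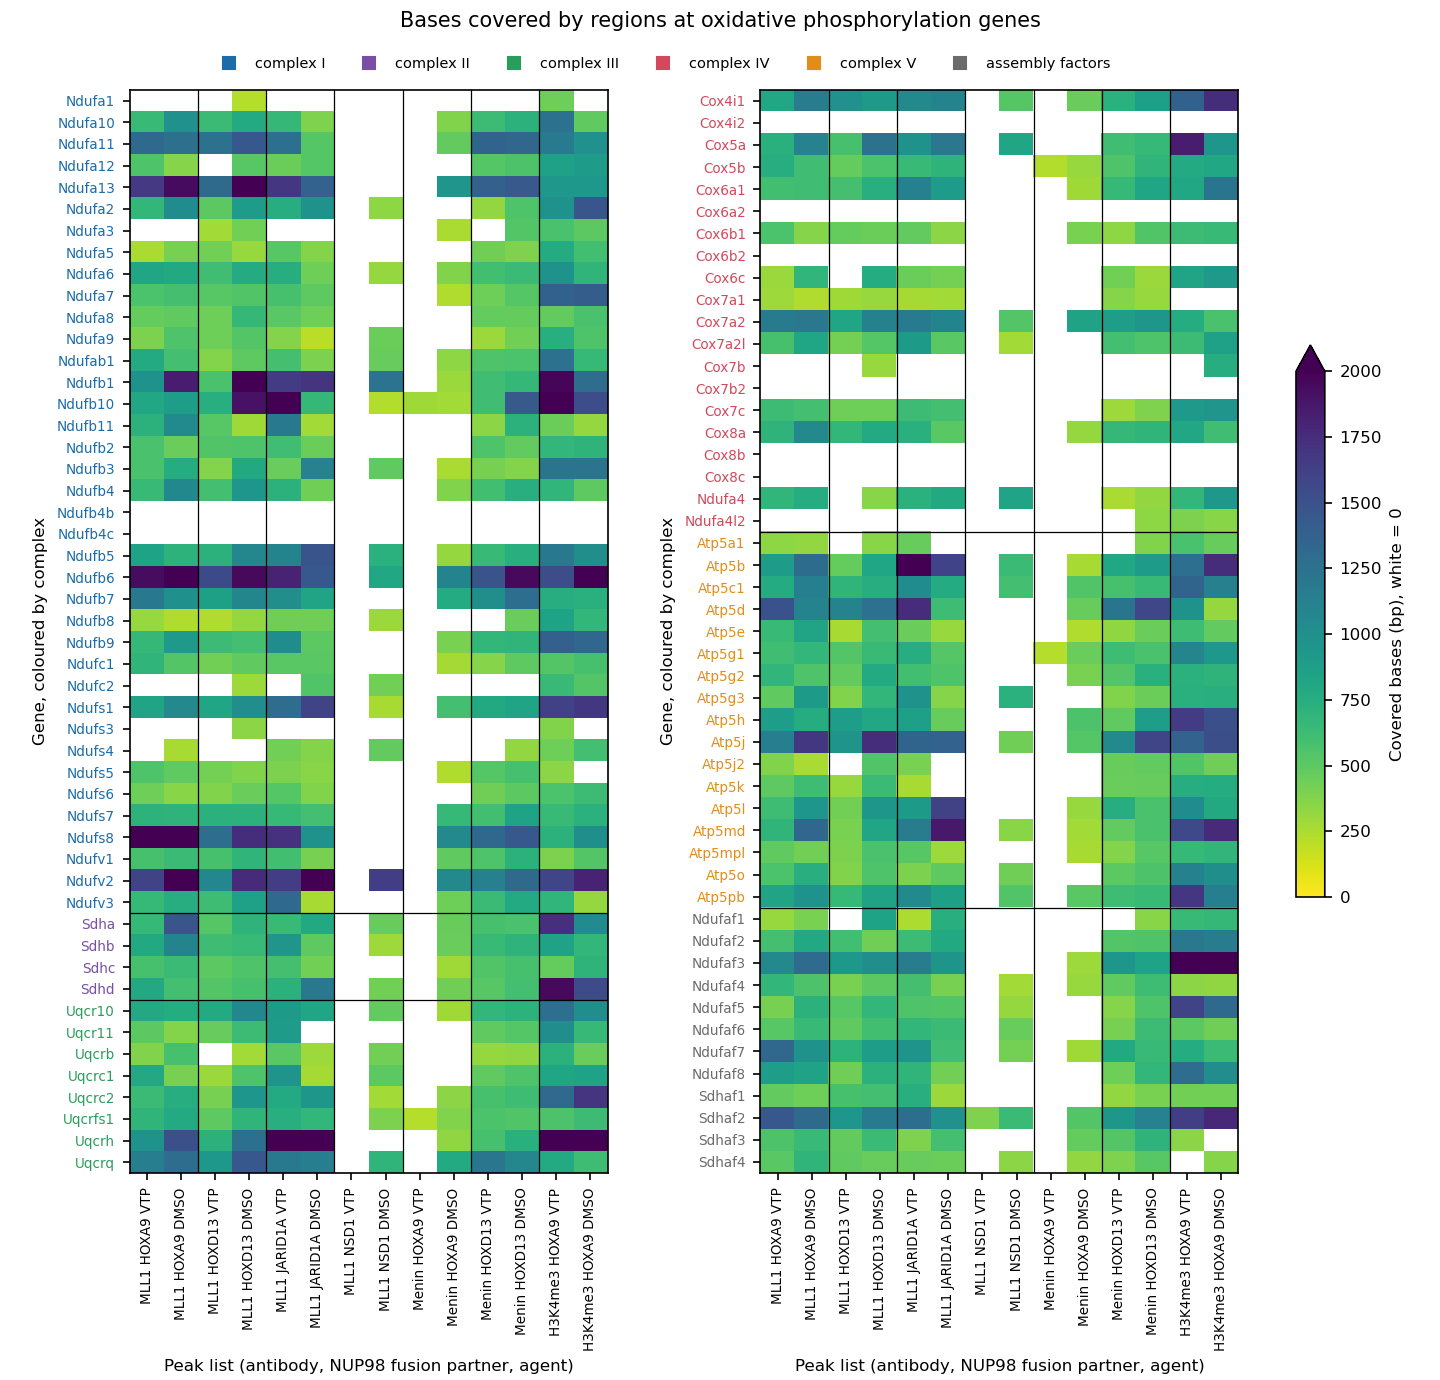
Covered bases (colour, bp, white for 0) of 99 of the genes (rows, coloured by complex) in the 14 lists (columns, VTP50469 left of DMSO in each pair). The columns of MLL1 in NUP98-NSD1 and of Menin in NUP98-HOXA9 after VTP50469 are almost white, and the rows of 8 genes, 6 of them isoforms of complex IV, are white in every column.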

How the data were processed

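Per the labels, MLL1, Menin or H3K4me3 was precipitated from NUP98-fusion leukaemia cells, and each deposited list holds the regions of 1 library. The submitters' processing notes name MACS2, bedtools, SAMtools, STAR 2.7.5a, Picard 2.9.4, bcl2fastq 2.20.0.422 and build mm10. Settings and controls were not given in the sources used here. The deposited lists give per region a score, a fold enrichment (a ratio), −log10 p, −log10 q and a summit offset. The authors' score was not used, their −log10 q ordered regions where lists were shortened, with −log10 p for ties, and their fold served to rank regions within 1 list. The weakest deposited −log10 q lay just above 2 in every list, so a missing region may be one below that limit.

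Genes came from the RefSeq table of GRCm38.p6. Overlaps, covered lengths, counts and motif shares were computed with Python 3.11.15, NumPy 2.4.6 and pandas 2.3.3, and figures with Matplotlib 3.10.9. The overlap code was tested on simulated regions. Lost means a region in DMSO and none after VTP50469, gained the opposite. No p-value was computed, since each condition has 1 library. Members, lists and roles were chosen with earlier results of these data known. Named genes were 14 fixed central members, those with the longest falls and gains per pair, the lost and gained ones with the highest fold, those lost in 3 or more lines, those never called, the widest, and those kept in the sparsest lists. Atp5j and Cox7a1 and others named for a count of 5 or fewer were picked after their values were seen. For 1 member the single-gene values are not reported here.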

Additional observations from a re-analysis of the deposited data

Results flagged for a closer look

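MLL1 length over the oxidative phosphorylation genes went in opposite directions in different lines. After VTP50469 it was 86.9% of the DMSO length in NUP98-HOXA9, 67.3% in NUP98-HOXD13 and 1.78% in NUP98-NSD1, while in NUP98-JARID1A it was 121%. The difference between the lines was not tested, since each has 1 library per condition. The lines also differ in dose, time and the length of their lists, and these cannot be told apart. Over all genes the percentages were 76.6%, 58.3%, 9.40% and 130.6% in the same order of lines, so the opposite directions are shared with genes at large.

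Ndufb10, an accessory subunit of complex I, was at or under 50% of its DMSO length in one line and at or over 200% in another: its MLL1 length was 39.3% of DMSO in NUP98-HOXD13 and 308% in NUP98-JARID1A. This difference was not tested. In lists of equal length Ndufb10 had 41% in NUP98-JARID1A, so the opposite direction was not seen there. An end of Rps2 lies within 1 kb of an end of Ndufb10.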

How the results depend on the processing

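No paired analysis was possible because each group has 1 library, so no replicate numbers are shared. An analysis paired over the lines was not run, since the lines differ in fusion, dose and time. Covered length over all members kept its direction wherever it could be computed under the alternatives (a −log10 q of at least 5, lists of equal length, windows of the gene ends only, subunits only, and, added after seeing the data, members without a neighbouring gene end and shared bases counted once). The NUP98-NSD1 MLL1 pair and the Menin pair in NUP98-HOXA9 moved most, and their treated lists are the shortest.

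With both lists cut to equal length, MLL1 losses in NUP98-HOXD13 were 5 (6.33%, against 7.36% of all genes) with 3 gained, and in NUP98-JARID1A 10 (12.7%, against 10.4%) with 3 gained, so the excess of gains over losses there turned round. In NUP98-HOXA9 1 was gained. In NUP98-NSD1 3 of 3 DMSO members were lost (100%, against 65.8%), 1 was gained and the length was 11.5%. For Menin in NUP98-HOXA9, 0 members remained in DMSO, so 0 were lost and 4 counted as gained, and no length ratio could be had. At single genes in NUP98-JARID1A, Ndufb10 turned to 41% and Ndufb11 to 0% of DMSO.

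With a −log10 q of at least 5, MLL1 gains were 2 in NUP98-HOXA9 and 1 in NUP98-HOXD13, and in NUP98-NSD1 0 members had a region after VTP50469 and 21 in DMSO, all 21 (100%) lost, with a length of 0%. The same 0% and 100% held in NUP98-NSD1 for subunits only (0 members after VTP50469) and for members without a neighbour. Without neighbours, Menin in NUP98-HOXA9 kept 8.28% of its length. Windows of 500 bp gave 1 MLL1 gain in NUP98-HOXA9, and an overlap of 200 bases gave 2 losses. RefSeq starts gave 3 MLL1 gains in NUP98-JARID1A and 0 Menin gains in NUP98-HOXA9. Subunits only gave 1 H3K4me3 loss. The causes were not tested. The depth of the libraries is unknown, and regions near the calling limit may be called in 1 list and missed in the other.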

Other observations

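Other mitochondrial genes were taken from lists of known genes. Of 39 further assembly factors of the complexes, MLL1 in NUP98-HOXA9 stood at 38 after VTP50469 and at 38 in DMSO, with a covered length of 88.3% of DMSO. Of 19 genes of the TCA cycle it stood at 18 after VTP50469 and 18 in DMSO, with 88.5%. Of 78 mitochondrial ribosomal protein genes it stood at 69 after VTP50469 and 70 in DMSO, with 89.0%, and of 81 cytosolic ones at 73 after VTP50469 and 74 in DMSO, with 92.0%. Of 22 electron and metabolite carrier genes it stood at 20 after VTP50469 and 20 in DMSO, with 89.4%. The 19 regulators of mitochondrial genes had 77.7%, with 16 genes after VTP50469 and 17 in DMSO, and 20 glycolysis genes 74.0%, with 15 after VTP50469 and 17 in DMSO, near the 76.6% over all genes. The 19 menin and MLL targets of leukaemia, such as Meis1 and Hoxa9, had 34.1%, with 9 genes after VTP50469 and 14 in DMSO. In NUP98-JARID1A the same 19 targets had 77.7% of the DMSO length, while the TCA cycle had 128%.

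Menin in NUP98-HOXA9 was lost at 11 of 11 TCA cycle genes, 29 of 30 further assembly factors, 41 of 41 mitochondrial and 62 of 62 cytosolic ribosomal protein genes that had it in DMSO. Regulators of mitochondrial genes, such as Nrf1, Gabpa and Tfam, lost it at 10 of 10. Over all genes 96.6% lost it, so these shares are near that of genes at large.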
